A study of Saccharomyces cerevisiae YPS1009 with 8 samples.

Results

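The 10 genes described here carry nitrogen into the yeast cell and move it between ammonium, glutamate and the amino acids that are broken down for it. They were chosen by name as the rows for GAP1 (YKR039W), MEP2 (YNL142W), PUT1 (YLR142W), PUT2 (YHR037W), CAR1 (YPL111W), CAR2 (YLR438W), GDH1 (YOR375C), GDH2 (YDL215C), GDH3 (YAL062W) and GLN1 (YPR035W), which are 10 of the 6536 genes in the count tables. All 10 were in each of the 8 tables and all 10 passed the filter on low counts. The measurement is ribosome footprinting: fragments of mRNA protected by ribosomes were sequenced, so the reads on a gene reflect its mRNA level and its translation together, and these cannot be told apart here.

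The cells were a haploid wild strain of Saccharomyces cerevisiae, YPS1009, either with an additional chromosome XII (Chr12) or with the normal chromosome set (euploid), and each strain was sampled at day 4, in stationary phase, and in log phase. The 4 groups were Chr12 at day 4, Chr12 in log phase, euploid at day 4 and euploid in log phase, with 2 libraries each. Both strains are MATa with a deletion in ho and carry a NatMX marker between BER1 and INA1 on chromosome XII. The Chr12 strain also has a deletion of his3 and carries His3MX6 beside NatMX at that site, so the strains differ by these alleles as well as by the chromosome. All cultures were started at an OD600 of 0.05 in YPD, a rich medium with amino acids and glucose, and grown at 30 °C, with log phase taken after 3 generations. Each strain stands for a single marked isolate. The labels number the replicates but do not say that they came from separate cultures, so the p-values measure only the spread between these libraries.

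As background, yeast cells that have a good nitrogen source such as glutamine keep the genes for poorer sources low, which is called nitrogen catabolite repression, and the GATA factors Gln3 and Gat1 raise them when good sources run out. GAP1 and MEP2 encode membrane transporters for amino acids and ammonium. Ammonium is built into glutamate by the NADPH-dependent glutamate dehydrogenases Gdh1 and Gdh3, and into glutamine by glutamine synthetase, Gln1. In the opposite direction, Put1 and Put2 turn proline into glutamate, Car1 (arginase) and Car2 (ornithine transaminase) break down arginine, and the NAD-dependent Gdh2 releases ammonium from glutamate. GAP1, MEP2, GDH1, GDH3 and GLN1 are grouped below as uptake and assimilation, and PUT1, PUT2, CAR1, CAR2 and GDH2 as breakdown.

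The libraries held from 211302 to 6215498 reads. At day 4 replicate 1 was the shallower library in both strains, with 396306 reads in Chr12 and 211302 in the euploid, against 2224955 and 6215498 in replicate 2. Reads per occupied position were between 2.06 and 2.24 in the day 4 replicate 1 libraries, the shallowest, and between 3.87 and 11 in the other libraries. The deepest library, euploid day 4 replicate 2, had the 11. Depth and repeated copies of a fragment thus cannot be told apart in this value. Of the growth phase markers, all 6 genes of a day 4 list (HSP12 and HSP26 among them) passed the test as higher at day 4 in both strains, and of 5 log phase markers tested, 2 in Chr12 and 3 in the euploid passed as lower. The G1 cyclin CLN1, a log phase marker, had a positive log2 fold change at day 4 in the euploid (1.21, FDR 0.618) and did not pass, and euploid day 4 replicate 1 was above both euploid log phase libraries for CLN1 (197 scaled CPM against 61.02 and 14.99) and for CLN2 (136 against 115 and 67.5). The extra chromosome was visible as well, since the 455 chromosome XII genes tested had a median log2 difference between Chr12 and euploid of 0.72 at day 4 and 0.70 in log phase, against -0.12 and -0.02 for the other 4837 genes. Values below are CPM, read counts divided by the library size after edgeR's TMM scaling, given with replicate 1 before replicate 2, and they are relative to the other genes of a library. Each library came from a whole culture, so fewer cells using a gene and fewer footprints per cell cannot be told apart.

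**Figure D1:**
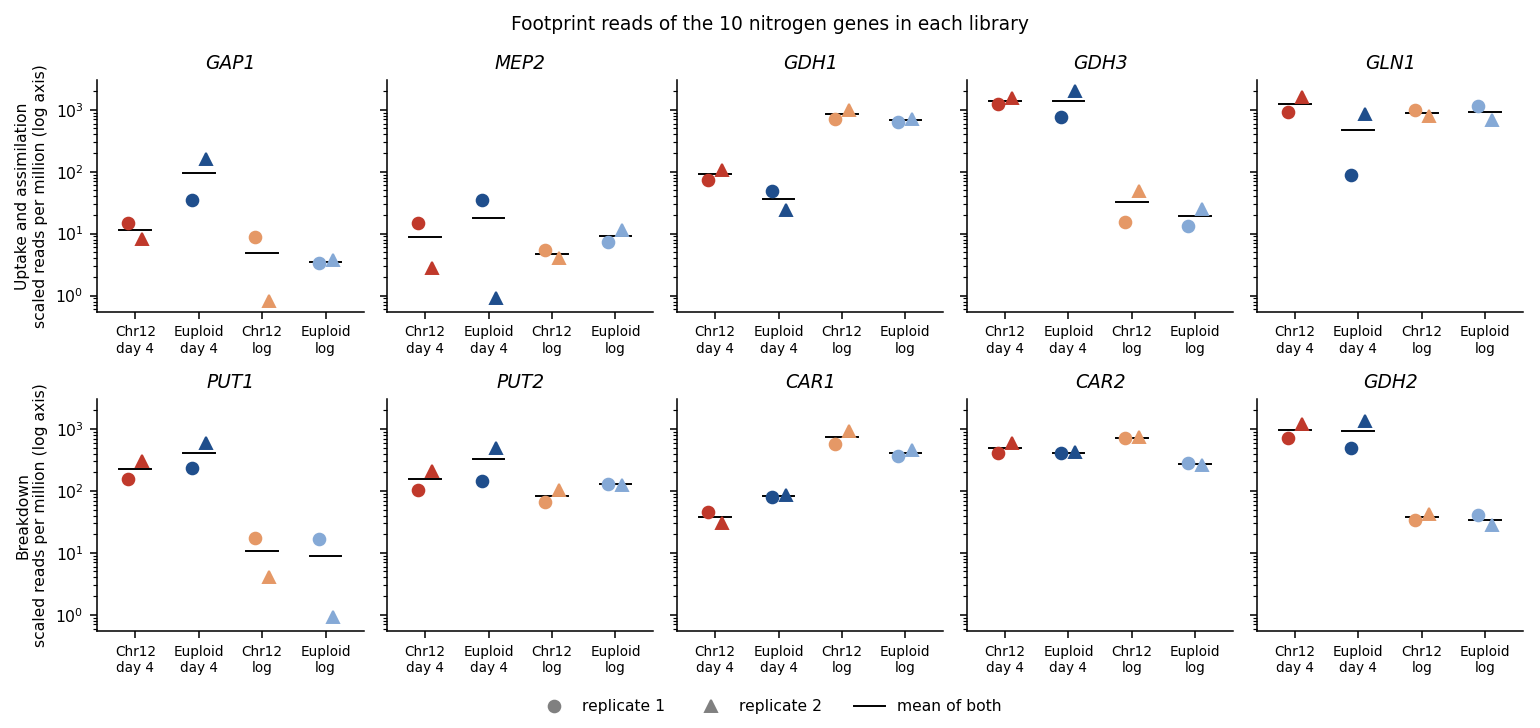
Scaled CPM (log axis) of the 10 genes in each of the 8 libraries, with uptake and assimilation genes in the top row and breakdown genes in the bottom row. Circles are replicate 1, triangles replicate 2 and lines the mean of both. GDH3, PUT1 and GDH2 sit far higher at day 4 in both strains, while GDH1 and CAR1 sit lower there.

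The first comparison asked how the nitrogen genes differed between day 4 and log phase. In Chr12, 3 of the 10 genes passed the test as higher at day 4 (GDH3, GDH2 and PUT1) and 2 as lower (GDH1 and CAR1), at a false discovery rate (FDR) of 0.05 in edgeR's quasi-likelihood test with Benjamini-Hochberg adjustment over 5292 genes. In the euploid 4 passed as higher (GDH3, PUT1, GAP1 and GDH2) and 2 as lower (GDH1 and CAR1). Over all genes tested, 22.5% passed in Chr12 (13.7% higher, 8.82% lower) and 26.8% in the euploid (15.9% higher, 11% lower). The median log2 fold change of the 10 genes was 0.84 in Chr12 and 1.02 in the euploid, against 0.23 and 0.35 over all genes. Day 4 and log phase libraries did not overlap for 7 of the 10 genes in Chr12 (4 higher, 3 lower) and for 8 in the euploid (6 higher, 2 lower). Over all genes these shares were 36.4% higher and 28.6% lower in Chr12, and 33.2% higher and 26.7% lower in the euploid. Calls fell to 1 in Chr12 when log phase replicate 2 was left out and to 3 without day 4 replicate 1, and in the euploid to 3 without log phase replicate 2.

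**Figure D2:**
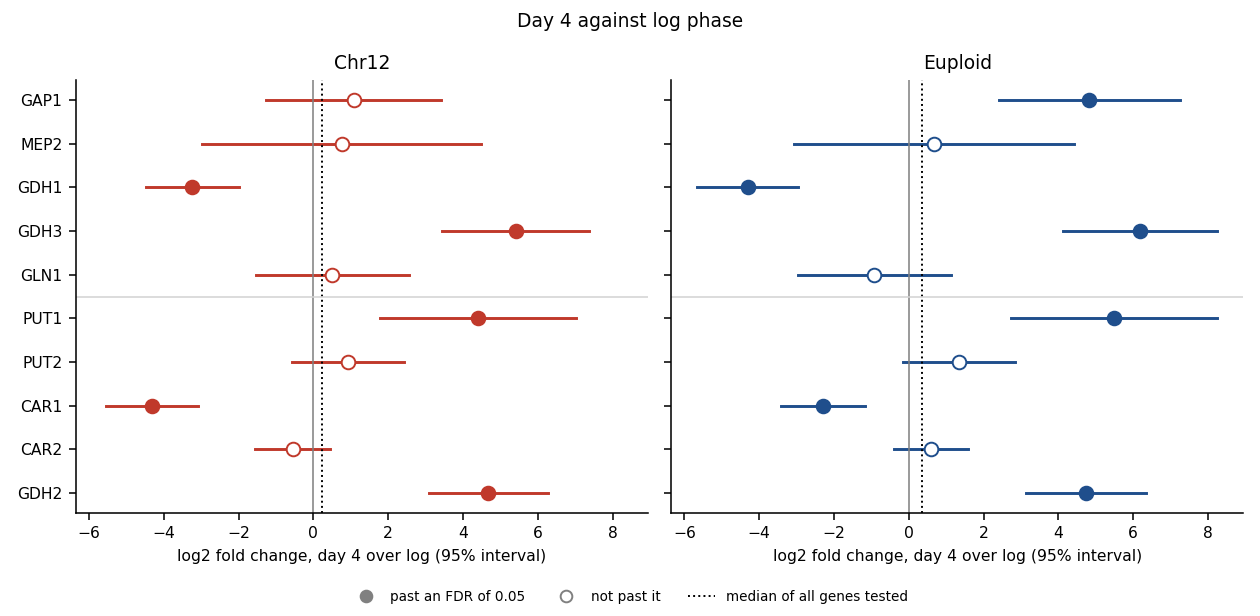
log2 fold change of day 4 over log phase for each gene in Chr12 (left) and the euploid (right), with 95% intervals from edgeR. Filled points are past an FDR of 0.05, the dotted line is the median of all genes tested, and the grey line divides uptake and assimilation (top) from breakdown (bottom). GDH3 lies highest in Chr12, at 5.41, and in the euploid, at 6.19, and GDH1 and CAR1 lie below 0 in both strains.

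The 2 glutamate dehydrogenases that build glutamate moved in opposite directions. GDH3 had 1225 and 1533 scaled CPM in Chr12 at day 4, against 15.5 and 49.4 in Chr12 log phase. In the euploid it had 766 and 2026 at day 4, against 13.3 and 25.3 in log phase. Every day 4 library was thus far above every log phase library, and the groups did not overlap. The fold change was 42.6 in Chr12 (log2 5.41, SE 0.86, FDR 0.0056) and 72.8 in the euploid (log2 6.19, SE 0.89, FDR 0.0030), which placed GDH3 at percentile 98.2 of all genes in the euploid. GDH1, which encodes the enzyme with the same reaction and a closely related sequence, was low where GDH3 was high. It had 74.8 and 106 scaled CPM in Chr12 at day 4, against 711 and 1002 in Chr12 log phase, and 48.2 and 24.2 in the euploid at day 4, against 624 and 722 in euploid log phase. No day 4 library reached any log phase library. GDH1 was 9.40-fold lower at day 4 in Chr12 (log2 -3.23, SE 0.54, FDR 0.0066) and 19.8-fold lower in the euploid (log2 -4.30, SE 0.59, FDR 0.0025). In the euploid both calls held with any library left out, with FDR up to 0.037 for GDH3 and 0.028 for GDH1. In Chr12 the GDH1 call was lost without day 4 replicate 1 (FDR 0.056) or log phase replicate 2 (FDR 0.062), and the GDH3 call without log phase replicate 2 (FDR 0.051).

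Of the reads on this gene pair, GDH3 held 94.2% (95% Wilson interval 92.1% to 95.8%, 608 reads) and 93.5% (92.7% to 94.3%, 3566 reads) in Chr12 at day 4, against 2.13% (1.46% to 3.11%, 1218 reads) and 4.70% (3.68% to 5.995%, 1297 reads) in Chr12 log phase. In the euploid it held 94.1% (89.7% to 96.7%, 186 reads) and 98.8% (98.6% to 99%, 11079 reads) at day 4, against 2.08% (1.35% to 3.19%, 961 reads) and 3.39% (2.34% to 4.88%, 797 reads) in log phase. Nearly all reads of the pair were thus on GDH3 at day 4 and on GDH1 in log phase in both strains, with group means of 93.9% ± 0.51 against 3.42% ± 1.82 in Chr12 and 96.5% ± 3.35 against 2.73% ± 0.92 in the euploid (SD, n = 2 each). These intervals cover counting error only, and removal of repeated copies of a fragment is not described.

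The low GDH3 counts of log phase were not spread along the gene. Codons 168 to 183, the 16 codons in a row that held most of these reads, held 64% and 46.7% of the GDH3 coding reads in Chr12 log phase and 80% and 74.1% in euploid log phase. The window was chosen from those values, so they are a description. At day 4 it held 5.79% and 7.33% of GDH3 reads in Chr12 and 8.62% and 13.1% in the euploid. In GDH1 the window held 3.53% and 9.47% of the coding reads in Chr12 log phase and 5% and 8.22% in euploid log phase, where GDH1 was high. Where GDH1 was low, at day 4, it held 20% and 11.3% in Chr12 and 9.09% (1 of 11 reads) and 52.7% in the euploid. In each of the 8 libraries the window took a larger share of the paralog with fewer reads. Reads that fit both genes leave the lower member of the pair uncertain, and their part in these counts was not tested. Outside the window GDH3 had 9 and 32 reads in Chr12 log phase and 4 and 7 in euploid log phase. With the window left out, the GDH3 share averaged 94.4% at day 4 against 1.78% in log phase in Chr12, and 96.7% at day 4 against 0.716% in log phase in the euploid.

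**Figure D3:**
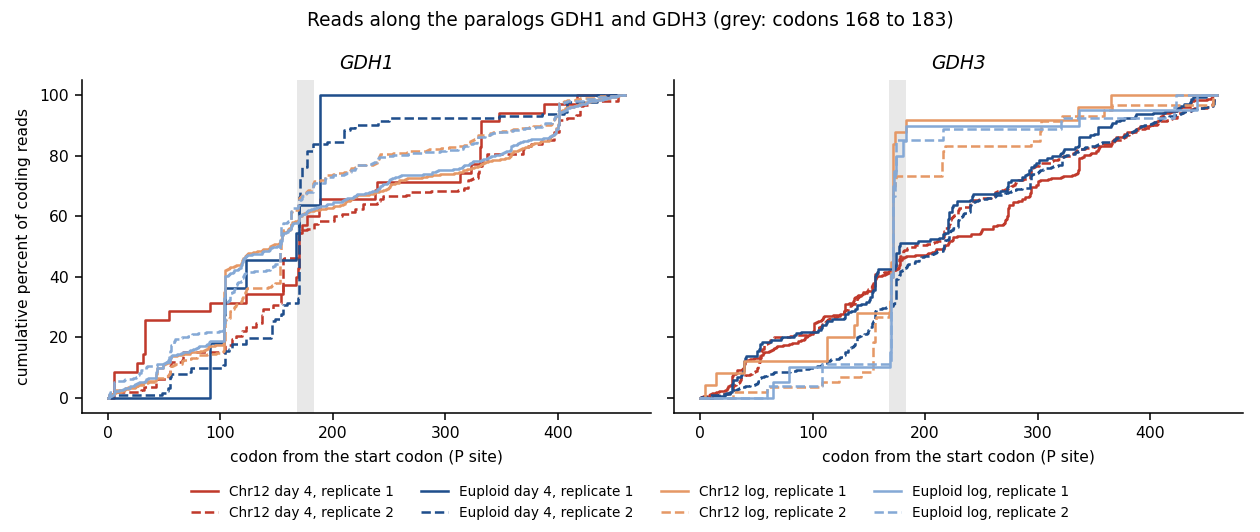
Cumulative percent of coding reads along GDH1 (left) and GDH3 (right), by codon from the start codon, for each of the 8 libraries (solid lines replicate 1, dashed lines replicate 2). In the grey band, codons 168 to 183, the day 4 lines of GDH3 step up by between 5.79% and 13.1%, while its log phase lines step up by between 46.7% and 80%.

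GLN1, whose enzyme makes glutamine, was among the most heavily read of the 10 genes and did not pass the test in either strain. It had 936 and 1584 scaled CPM in Chr12 at day 4, against 989 and 790 in Chr12 log phase. Euploid values were 87.6 and 865 at day 4, against 1138 and 681 in log phase. The euploid day 4 libraries thus lay 9.88-fold apart, with 20 reads in replicate 1 and 4675 in replicate 2, the widest gap in this group after that of MEP2 (37.9-fold). The log2 fold change was 0.50 in Chr12 (95% interval -1.54 to 2.55, FDR 0.738) and -0.92 in the euploid (-2.97 to 1.14, FDR 0.499). Without euploid day 4 replicate 2 the euploid difference was -3.71 and passed (FDR 0.0119). A single position near the gene's end, at codon 369 or 370, held 8.45% and 9.20% of the GLN1 reads in Chr12 at day 4, 22.8% in euploid day 4 replicate 2, and 17% and 20.2% in the log phase replicate 1 libraries of Chr12 and euploid.

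The transporters were read little. GAP1, the general amino acid permease, had 15 and 8.27 scaled CPM in Chr12 at day 4, against 8.94 and 0.811 in Chr12 log phase, where replicate 2 held 1 read. In the euploid it had 35 and 158 at day 4 (8 and 855 reads), against 3.32 and 3.75 in log phase (5 and 4 reads). The euploid day 4 libraries were both above all log phase libraries, and the Chr12 groups overlapped. The log2 fold change was 1.07 in Chr12 (SE 1.02, FDR 0.501) and 4.83 in the euploid (SE 1.05, FDR 0.0117), a 28.4-fold change. That call rested on few reads. It was lost without euploid day 4 replicate 2 (log2 2.95, FDR 0.137) and without either euploid log phase library (FDR 0.0899 and 0.0831). MEP2, the high-affinity ammonium transporter, had between 5 and 12 reads in every library. Its scaled CPM values were 15 and 2.76 in Chr12 at day 4, against 5.37 and 4.05 in Chr12 log phase, and 35 and 0.925 in the euploid at day 4, against 7.30 and 11.2 in euploid log phase. The day 4 reads were 7 and 6 in Chr12 and 8 and 5 in the euploid. Replicate 1 was thus higher in scaled CPM on similar reads from a far smaller library. The groups overlapped, and a difference was not detectable at this depth (log2 0.76, FDR 0.787 in Chr12 and 0.68, FDR 0.792 in the euploid, with a euploid 95% interval of -3.07 to 4.43).

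Among the breakdown genes, GDH2 and PUT1 were higher at day 4. GDH2, which releases ammonium from glutamate, had 720 and 1216 scaled CPM in Chr12 at day 4, against 33.4 and 42.2 in Chr12 log phase. The euploid had 490 and 1353 at day 4, against 40.5 and 28.1 in log phase. Every day 4 library was above every log phase library. GDH2 was 25.6-fold higher at day 4 in Chr12 (log2 4.68, SE 0.69, FDR 0.0048) and 26.9-fold higher in the euploid (log2 4.75, SE 0.70, FDR 0.0031), and the call in Chr12 was lost without its log phase replicate 2 (FDR 0.062). PUT1, proline oxidase, the first enzyme of proline breakdown in mitochondria, had 154 and 305 scaled CPM in Chr12 at day 4, against 17.3 and 4.05 in Chr12 log phase. It had 232 and 586 in the euploid at day 4, against 16.6 and 0.937 in euploid log phase, where replicate 2 held 1 read. All 4 day 4 values were above all 4 log phase values. The fold change was 21 in Chr12 (log2 4.39, SE 1.14, FDR 0.0267) and 44.9 in the euploid (log2 5.49, SE 1.20, FDR 0.0122). Of the log phase PUT1 reads in replicate 1, 48.3% in Chr12 and 56% in the euploid lay at 1 position, at codon 250. The PUT1 call in Chr12 was lost with any 1 of the 4 Chr12 libraries left out (FDR 0.0681 without day 4 replicate 1, 0.116 without day 4 replicate 2, 0.0739 without log phase replicate 1 and 0.177 without log phase replicate 2), and the call in the euploid without log phase replicate 2 (FDR 0.0578).

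PUT2, which follows PUT1 and completes the step from proline to glutamate, had 105 and 210 scaled CPM in Chr12 at day 4, against 65.6 and 102 in Chr12 log phase. Euploid cells had 144 and 501 at day 4, against 131 and 125 in log phase. The day 4 values were above the log phase values within each strain, by narrow margins between the closest libraries. The log2 fold change of 0.92 in Chr12 (SE 0.65, FDR 0.360) and 1.35 in the euploid (SE 0.65, FDR 0.168) did not pass. The euploid value was 1.98 and passed without day 4 replicate 1 (FDR 0.0204), and was -0.16 without day 4 replicate 2. The 2 genes of proline breakdown were thus measured at unlike sizes, with PUT1 past the test and PUT2 not, although the difference between PUT1 and PUT2 was not itself tested.

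The 2 genes of arginine breakdown also had unlike values. CAR1, arginase, had 44.9 and 30.3 scaled CPM in Chr12 at day 4, against 568 and 918 in Chr12 log phase. In euploid libraries it had 78.8 and 87 at day 4, against 363 and 457 in log phase. All day 4 libraries were below all log phase libraries. CAR1 was 20.01-fold lower at day 4 in Chr12 (log2 -4.32, SE 0.54, FDR 0.0029) and 4.92-fold lower in the euploid (log2 -2.30, SE 0.49, FDR 0.0112). The Chr12 call held with any library left out (FDR up to 0.0451), and the euploid call was lost without log phase replicate 1 (FDR 0.0525) or replicate 2 (FDR 0.0801). CAR2, ornithine transaminase, the next enzyme of the path, had 404 and 586 scaled CPM in Chr12 at day 4, against 707 and 749 in Chr12 log phase. The euploid had 407 and 423 at day 4, against 286 and 262 in log phase. The groups did not overlap in either strain, with day 4 lower in Chr12 and higher in the euploid. Neither difference passed (log2 -0.55, SE 0.43, FDR 0.407 in Chr12 and 0.60, SE 0.43, FDR 0.354 in the euploid).

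Set against each other by role, uptake and assimilation had a median log2 fold change at day 4 of 0.76 in Chr12 and 0.68 in the euploid, with 1 gene higher and 1 lower of 5 in Chr12, and 2 higher and 1 lower in the euploid. Breakdown had a median of 0.92 in Chr12 and 1.35 in the euploid, with 2 higher and 1 lower of 5 in both strains. Over all genes the median was 0.23 in Chr12 and 0.35 in the euploid, with 13.7% called higher and 8.82% lower in Chr12, and 15.9% higher and 11% lower in the euploid. The difference between the roles was not tested. Breakdown genes took 38.7% and 42.1% of the reads on the 10 genes in Chr12 at day 4, against 44.6% and 49.6% in Chr12 log phase. They took 58.2% and 49% in the euploid at day 4, against 31.9% and 37.7% in log phase. The share at day 4 was below that in log phase in Chr12 and above it in the euploid, and the libraries did not overlap in either strain. Group means were 40.4% ± 2.40 at day 4 and 47.1% ± 3.55 in log phase for Chr12, and 53.6% ± 6.52 at day 4 and 34.8% ± 4.09 in log phase for the euploid (SD, n = 2 each), and no test was made of these shares. When repeated reads at a position were counted once, the means were 50.7% at day 4 and 52% in log phase for Chr12 (SD 5.08 and 0.51), where the libraries overlapped, and 60.8% at day 4 and 44.9% in log phase for the euploid. CAR2, which lies on the extra chromosome XII, held 1185 of 2332 and 924 of 2239 breakdown reads in Chr12 log phase. At day 4 it held 189 of 668 and 1275 of 5107 in Chr12. CAR1, which is not on chromosome XII, held 952 of 2332 and 1132 of 2239 breakdown reads in Chr12 log phase. At day 4 CAR1 held 21 of 668 and 66 of 5107 in Chr12. Both arginine genes thus took a smaller part of the Chr12 breakdown reads at day 4. The part of either gene in the lower share was not tested. All 10 genes together had 3693 and 5580 scaled CPM in Chr12 at day 4, against 3120 and 3661 in Chr12 log phase, and 2325 and 6024 in the euploid at day 4, against 2623 and 2317 in euploid log phase.

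**Figure D4:**
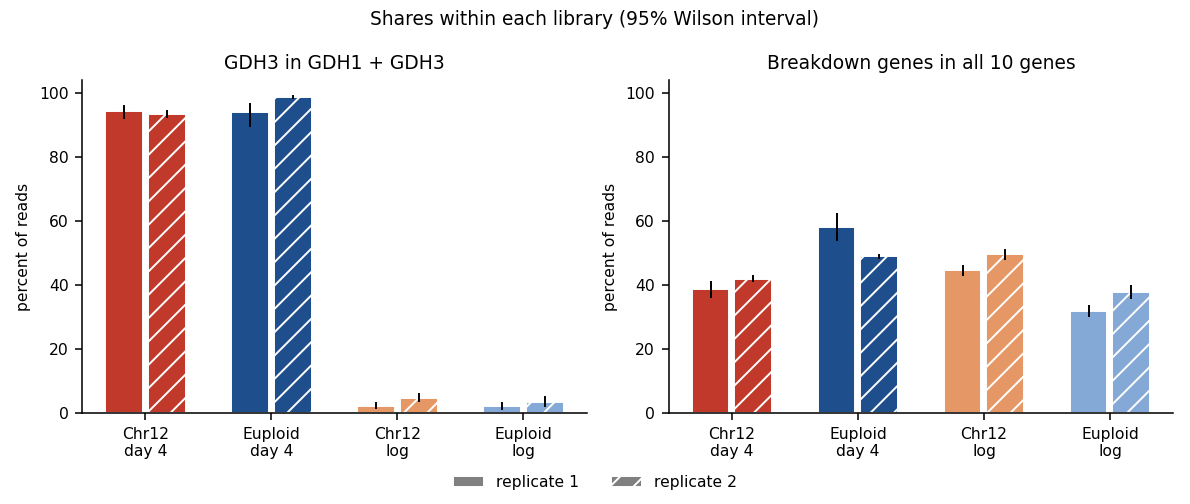
Percent of reads in each library that lie on GDH3 among GDH1 and GDH3 reads (left) and on the 5 breakdown genes among reads of all 10 genes (right). Bars are single libraries (plain replicate 1, hatched replicate 2) and lines are 95% Wilson intervals for counting error. GDH3 holds at least 93.5% at day 4 and at most 4.70% in log phase, while the breakdown share spans 31.9% to 58.2%.

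Levels of different genes were compared as scaled CPM per kb of coding length. In Chr12 at day 4 the order was GLN1 (1132) and GDH3 (1003), which overlapped, then CAR2 (388) and GDH2 (295), which overlapped, then PUT1 (160), PUT2 (90.9) and GDH1 (66.3), whose neighbours overlapped, then CAR1 (37.5), and last GAP1 (6.42) and MEP2 (5.91), which overlapped. In Chr12 log phase GLN1 (799), CAR1 (741), GDH1 (627) and CAR2 (571) led with overlapping neighbours, and PUT2 (48.5) stood apart from them. Below it GDH3 (23.6), GDH2 (11.5), PUT1 (7.44), MEP2 (3.14) and GAP1 (2.70) formed a chain of overlapping neighbours. Arginine breakdown thus stood beside glutamine and glutamate synthesis at the top of the log phase order, and both of the day 4 leaders were assimilation genes.

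In the euploid at day 4 the order by level per kb was GDH3 (1016), GLN1 (428), CAR2 (325), PUT1 (285), GDH2 (281), PUT2 (187), CAR1 (82.7), GAP1 (53.4), GDH1 (26.5) and MEP2 (12), and every neighbour overlapped. The 2 libraries lay 1.04-fold apart for CAR2 and 1.10-fold for CAR1, and between 1.99-fold and 37.9-fold for the other genes. In euploid log phase GLN1 (817), GDH1 (493), CAR1 (409), CAR2 (215) and PUT2 (74.1) each stood apart from the next. GDH3 (14) and GDH2 (10.5) overlapped, and MEP2 (6.18), PUT1 (6.11) and GAP1 (1.95) overlapped at the bottom. In both strains the 5 genes with the highest log phase levels were GLN1, GDH1, CAR1, CAR2 and PUT2.

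The second comparison asked whether the extra chromosome XII came with other footprint levels of these genes. None of the 10 passed an FDR of 0.05 between Chr12 and euploid at day 4 or in log phase, where 0% of all genes passed in edgeR. DESeq2 called none of the 10 either, and 90 of all genes at day 4 and 0 in log phase. At an unadjusted p under 0.05 edgeR had 3 of the 10 at day 4 (GAP1, CAR1 and GDH1), against 8.77% of all genes, and 1 in log phase (CAR2), against 1.93% of all genes. At day 4 the libraries of the strains did not overlap for GDH1 and GLN1, which were higher in Chr12, and for GAP1 and CAR1, which were lower. Over all genes 16.3% were higher and 15.4% lower without overlap. In log phase CAR1 and CAR2 were higher and MEP2 and PUT2 lower in Chr12 without overlap, against 16.1% and 15.2% of all genes. The median log2 difference of the 10 genes was -0.43 at day 4 and 0.30 in log phase, against -0.07 and 0.01 over all genes.

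**Figure D5:**
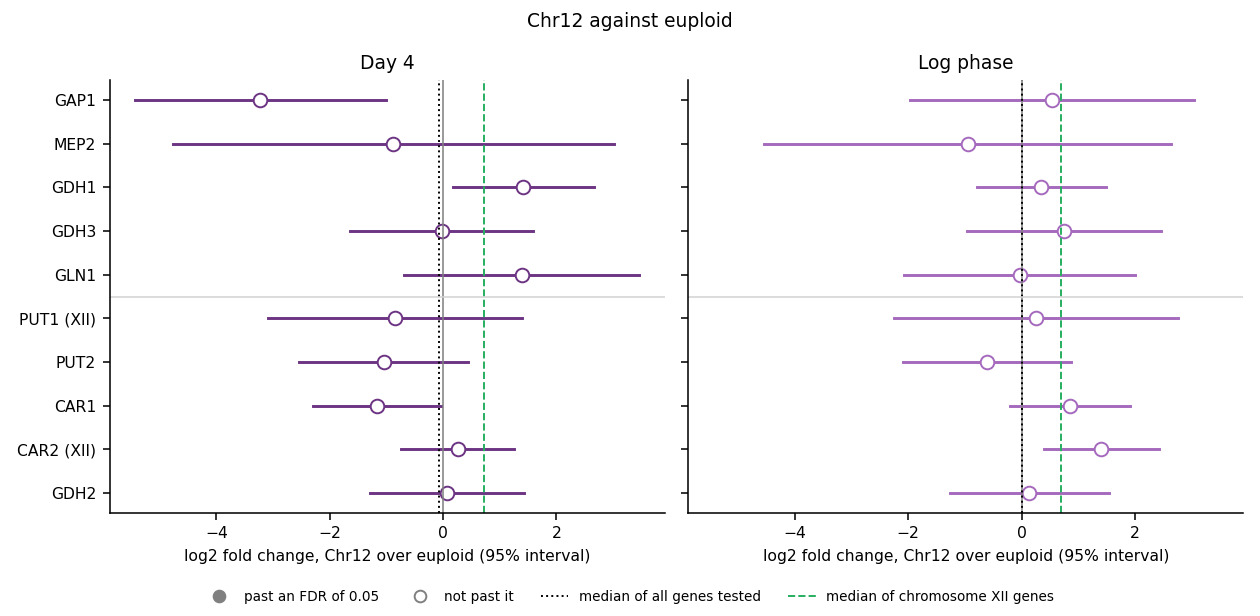
log2 fold change of Chr12 over euploid for each gene at day 4 (left) and in log phase (right), with 95% intervals from edgeR. Open points did not pass an FDR of 0.05, the dotted line is the median of all genes tested and the dashed line that of chromosome XII genes (0.72 at day 4, 0.70 in log phase). No point is filled, and GAP1 at day 4 lies farthest from 0, at -3.22.

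At day 4 the largest difference was that of GAP1, with 15 and 8.27 scaled CPM in Chr12 against 35 and 158 in the euploid (log2 -3.22, SE 0.96, unadjusted p = 0.0098, FDR 0.429 in edgeR). The euploid value rested on replicate 2, with 855 reads, while replicate 1 had 8. With repeated reads at a position counted once, GAP1 passed (log2 -2.74, FDR 0.0356), the only setting tried in which one of the 10 genes passed between the strains. GDH1 was higher in Chr12 at day 4, at 74.8 and 106 against 48.2 and 24.2 in the euploid (log2 1.42, SE 0.54, FDR 0.522). CAR1 was lower in Chr12, at 44.9 and 30.3 against 78.8 and 87 (log2 -1.17, SE 0.49, FDR 0.550). For GLN1 the values were 936 and 1584 in Chr12 against 87.6 and 865 in the euploid (log2 1.39, 95% interval -0.69 to 3.47). GDH3 and GDH2, both high at day 4, had log2 differences of -0.02 and 0.07 between the strains, PUT1 had -0.84, PUT2 -1.05 and MEP2 -0.88, and none of these 5 passed. The 6 day 4 markers also had a lower level in Chr12 at day 4, with a median log2 difference of -1.67 from the euploid (range -2.61 to -0.42), of which 0 passed in edgeR, 2 had an unadjusted p under 0.05 and 2 passed in DESeq2. Their part in the differences of the nitrogen genes was not tested.

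PUT1 and CAR2 lie on chromosome XII, so Chr12 cells carry a further copy of each. CAR2 had 707 and 749 scaled CPM in Chr12 log phase, against 286 and 262 in euploid log phase (log2 1.41, SE 0.44, 95% interval 0.40 to 2.42, unadjusted p = 0.0122, FDR 1.0 in edgeR). Both Chr12 libraries were well above both euploid libraries, and the difference was above the upper quartile of chromosome XII genes in log phase, 1.02. At day 4 CAR2 had 404 and 586 in Chr12, against 407 and 423 in the euploid, where the libraries overlapped (log2 0.26). PUT1 had a log2 difference of 0.25 in log phase, on 29 and 5 reads in Chr12 and 25 and 1 in the euploid, and of -0.84 at day 4, below the lower quartile of chromosome XII genes, 0.14. The difference of either gene from the median of its chromosome was not tested.

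The third comparison asked whether the change at day 4 differed between the strains. No gene of the 10 passed an FDR of 0.05 for this interaction, and 0% of all genes did in edgeR. DESeq2 called 32 of all genes and none of the 10. At an unadjusted p under 0.05 there were 2 of the 10, GAP1 and CAR1, against 4.38% of all genes. CAR1 had an interaction of -2.02 on the log2 scale (SE 0.67, 95% interval -3.57 to -0.47, FDR 0.97 in edgeR), the change in Chr12 minus that in the euploid. GAP1 had -3.76 (SE 1.44, FDR 1.0) and CAR2 -1.15 (SE 0.61, 95% interval -2.56 to 0.26), in the same direction. The median over the 5 breakdown genes was -1.09 and over the 5 uptake and assimilation genes 0.08, against -0.07 over all genes. A list of 11 other genes of amino acid breakdown, described below, had a median of 0.28 (range -1.61 to 3.83). The negative median of the 5 breakdown genes thus did not extend to this list. It was shared by the 4 tested genes of allantoin and urea breakdown, also described below. Their median was negative and close to that of the 5 genes (range -2.73 to 0.51), but DAL1, DAL2 and DAL7 among them had few reads. Whether any of these medians differed from that of all genes was not tested. GAP1 thus passed at day 4 in the euploid and not in Chr12, but the strains were not shown to differ in that change.

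Other genes of the pathways were counted from lists. The lists and the 10 genes were chosen with earlier results of these data known, so their counts are a description. Of 11 other genes of amino acid breakdown, 8 were higher and 1 lower at day 4 in Chr12, and 6 were higher and 2 lower in the euploid (22.5% and 26.8% of all genes were called in either direction), with median log2 fold changes of 3.44 and 3.17. The genes with the largest changes in either strain were GAD1, glutamate decarboxylase (4.93 in Chr12, FDR 0.0051, and 6.50 in the euploid, FDR 0.0023), and ARO10, a decarboxylase in the breakdown of aromatic amino acids (6.47, FDR 0.0027, and 6.28, FDR 0.0022). UGA1 and UGA2, which carry the product of Gad1 on to succinate, had 4.17 and 3.14 in Chr12 and 4.74 and 4.76 in the euploid, all past the test. GAD1, UGA1 and UGA2, like GDH2, act on glutamate or its products. Each of these genes was higher in both day 4 libraries than in both log phase libraries of the same strain. Over all genes, 36.4% in Chr12 and 33.2% in the euploid were higher without overlap. GAD1, UGA1 and UGA2 were named for their large day 4 changes, so this is a description. The genes of this list called lower were ASP1 (log2 -3.67 in Chr12 and -3.19 in the euploid) and, in the euploid only, CHA1 (-2.98). Of 5 genes for allantoin and urea breakdown 4 were tested, and 0 passed in either strain, also at an unadjusted p under 0.05 and in DESeq2. Their median log2 fold change was 0.04 in Chr12 and 1.26 in the euploid. DAL1, DAL2 and DAL7 among them had between 2 and 24 reads in every library, so the depth limits what could be detected.

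Of 15 other permeases for nitrogen compounds, 3 were higher and 1 lower at day 4 in Chr12, and 2 were higher and 1 lower in the euploid, which is near the share of all genes called. PUT4, the proline permease that feeds the Put1 and Put2 path, had 528 and 1121 scaled CPM in Chr12 at day 4, against 4.17 and 3.24 in Chr12 log phase (log2 7.76, FDR 0.0026). In the euploid it had 52.5 and 208 at day 4, against 8.62 and 5.62 in log phase (log2 4.21, FDR 0.0072). Every day 4 library was above every log phase library for PUT4, as for PUT1. The PUT4 changes rested on few reads, with 7 and 4 in Chr12 log phase and 13 and 6 in euploid log phase. Euploid day 4 replicate 1 had 12. Between the strains at day 4 PUT4 had a log2 difference of 2.61 and PUT1 of -0.84, and neither passed. BAP2, a permease for branched amino acids, was higher at day 4 by 1.73 in Chr12 (FDR 0.0271) and 2.62 in the euploid (FDR 0.0059), and AGP1, a broad permease, by 2.70 in Chr12 (FDR 0.0136), with 1.37 in the euploid (FDR 0.108). GNP1, a glutamine permease, was lower at day 4 in both strains (log2 -2.24, FDR 0.0118 in Chr12 and -3.06, FDR 0.0036 in the euploid).

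Genes that build proline (PRO1, PRO2 and PRO3) lay on the lower side at day 4, opposite to PUT1. They were listed with GLT1, which builds glutamate. Of these 4 genes, 1 was called lower in Chr12 and 3 in the euploid, against 8.82% and 11% of all genes. GLT1 did not pass (log2 -0.85, FDR 0.388 in Chr12 and -0.35, FDR 0.724 in the euploid). PRO3, the last enzyme of proline synthesis, had a log2 fold change of -2.52 in Chr12 (FDR 0.0242) and -2.85 in the euploid (FDR 0.0141). PRO1 and PRO2 passed in the euploid, at -2.30 (FDR 0.0059) and -1.83 (FDR 0.0218), and had values of -1.23 (FDR 0.0519) and -1.48 (FDR 0.0500) in Chr12 that fell just short. Of 15 regulators of nitrogen genes, 14 were tested, and 3 were higher in Chr12 (GLN3, GAT1 and ARG80) and 2 in the euploid (GLN3 and ARG80), against 13.7% and 15.9% of all genes. GLN3, one of the GATA activators, had log2 fold changes of 1.41 (FDR 0.0411) in Chr12 and 1.56 (FDR 0.0274) in the euploid, and GAT1, the other, of 2.94 (FDR 0.0274) and 1.57 (FDR 0.163). ARG80, a regulator of arginine genes, had 2.15 (FDR 0.0202) and 1.66 (FDR 0.0487). DESeq2 called 2 of the regulators in Chr12 and 0 in the euploid. Between the strains 0 of the 48 genes tested from these lists passed in edgeR at day 4 or in log phase, with 5 at an unadjusted p under 0.05 at day 4 and 1 in log phase, and 2 and 0 in DESeq2.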

How the data were processed

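Ribosome footprints of 8 libraries (4 groups of 2) were deposited by the authors as raw counts: reads were trimmed with cutadapt, noncoding RNA reads and reads with a poor first base were removed, the rest were aligned to the YPS1009 genome with bowtie2, and each 5′ end was scored at its position from 72 nt before the ATG to about 60 nt past the stop codon. Removal of duplicates is not described, and replicates were not pooled. Second tables exist for the 4 replicate 1 libraries; how they were made is not stated, and they served as an alternative.

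All positions of a gene were summed. Of 6536 genes 5833 were kept (657 left out for a coding length that was short or not in whole codons, 42 for 100 nt or more without reads where 100 or more were expected, and 4 for want of a systematic name). Kept genes held 75.5% to 78.4% of reads in log phase and 90.8% to 95.1% at day 4. Symbols came from the R64 gene table. Systematic names gave each gene's chromosome.

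Counts were tested with edgeR 4.0.16 under R 4.3.3 (quasi-likelihood, TMM, edgeR's expression filter, 4 group means, no replicate block, Benjamini-Hochberg FDR of 0.05 over 5292 genes). The procedure was tested on simulated data. Intervals are 95%. Alternatives were gene-body reads (P site 12 nt into the read, 20 codons left out at each end), each gene's highest position left out, 1 read per occupied position, all named rows, DESeq2 1.42.0, RLE size factors, 2 other count filters, a replicate block, fits of only the groups compared, the second tables and each library left out. Leaving out both shallow day 4 libraries, and leaving out a GDH3 window, were added after seeing the data. The 10 genes and all lists were chosen with earlier results of these data known. All 10 genes were named, and from each other list up to 4 genes with the largest change among those past the FDR at day 4. Further list genes were named only for a call in the other direction, few reads or no call.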

Additional observations from a re-analysis of the deposited data

Results flagged for a closer look

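CAR1, arginase, differed between the strains in opposite directions at the 2 growth phases: both Chr12 libraries were below both euploid libraries at day 4 (log2 -1.17) and above both in log phase (log2 0.86). Over all genes, 15.4% were lower in Chr12 without overlap at day 4 and 16.1% higher in log phase. The interaction of CAR1 was -2.02 on the log2 scale (SE 0.67), with an FDR of 0.97 in edgeR, and did not pass.

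CAR2, ornithine transaminase, had day 4 and log phase in opposite order in the 2 strains. Both day 4 libraries were below both log phase libraries in Chr12 (log2 -0.55, FDR 0.407) and above both in the euploid (log2 0.60, FDR 0.354). Neither difference passed in edgeR. Over all genes, 28.6% were lower without overlap in Chr12 and 33.2% higher in the euploid. The interaction was -1.15 (SE 0.61), with an FDR of 1.0 in edgeR, and did not pass.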

How the results depend on the processing

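Depth is the main limit: GAP1, MEP2 and log phase PUT1 rest on few reads, and day 4 replicate 1 is shallow in both strains. The 11 calls (6 in the euploid, 5 in Chr12) kept their direction and stayed past an FDR of 0.05 in all 129 values under the other settings that tested them. GAP1, PUT1 and MEP2 were not tested with at least 10 reads in every library, and MEP2 not with the second tables or with 1 read per position. In fits of only the groups compared MEP2 was not tested for day 4 in Chr12, nor GAP1 between the strains in log phase. With a library left out, 74 of 88 values kept the call, 14 lost it and 0 turned. Members called ranged from 3 to 7 in the euploid and from 1 to 5 in Chr12, and 0 were called between the strains or for the interaction. Of 39 results not called, 409 of 434 values kept their side and direction under other settings, 6 passed (PUT2 in 5, GAP1 in 1) and 19 turned.

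Counting 1 read per occupied position gave 1 member called between Chr12 and euploid at day 4 (GAP1), breakdown shares of 50.7% (Chr12 day 4), 52% (Chr12 log), 60.8% (euploid day 4) and 44.9% (euploid log), and GDH3 shares of 88.3% in Chr12 at day 4 and 6.23% in Chr12 log phase. Without the GDH3 window the GDH3 share was 94.4% in Chr12 at day 4 and 0.716% in euploid log phase. Results that turned were as follows. For Chr12 against euploid at day 4, GDH3 became 0.031 without the highest position, 0.21 with 1 read per position, 0.12 with at least 10 reads, 0.17 with the replicate block and 0.042 with only the groups compared, and CAR2 -0.010 with the second tables. For Chr12 against euploid in log phase, GDH2 became -0.15 with 1 read per position, GLN1 0.0013 with DESeq2, 0.0013 with RLE and 0.14 with the second tables, and GAP1 -0.30 with the second tables. The GDH2 interaction became 0.41 with 1 read per position, 0.091 with at least 10 reads and 0.063 with the replicate block. Leaving out both shallow day 4 libraries, chosen after seeing the data, gave 7 members called in the euploid and 6 in Chr12 (PUT2 added), and turned MEP2 to -3.25 at day 4 in the euploid, -0.81 in Chr12 and 1.49 between the strains, and GDH2 to -0.18 between the strains. The cause was not tested.

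With a library left out, results that turned in at least 1 fit ranged as follows. For day 4 in the euploid MEP2 ran from -3.22 to 1.58 and PUT2 from -0.16 to 1.98, and in Chr12 MEP2 from -0.79 to 1.64. Between the strains in log phase GAP1 ran from -2.02 to 1.32, GDH3 from -0.31 to 1.37, GLN1 from -0.35 to 0.39, PUT1 from -1.15 to 3.44 and GDH2 from -0.10 to 0.43. Between the strains at day 4 MEP2 ran from -2.13 to 2.97, GDH3 from -0.56 to 1.06, PUT1 from -1.44 to 0.23, PUT2 from -1.66 to 0.37, CAR2 from -0.049 to 0.60 and GDH2 from -0.49 to 1.21. For the interaction MEP2 ran from -1.16 to 3.92, GDH3 from -1.39 to 0.33, PUT1 from -4.28 to 0.30, PUT2 from -1.05 to 1.004 and GDH2 from -0.62 to 1.10.

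The replicate block turned MEP2 at day 4 in the euploid to -0.39. It left 6 members called in the euploid, 5 in Chr12 and 0 elsewhere, and called 1728 and 1525 of all genes. Only 2 replicate numbers exist, and the labels state no pairing, but the study paired euploid and Chr12 libraries by replicate in its own footprint comparisons. Libraries of a number deviated together (correlations of 0.14 to 0.68 over 6 pairs of groups). The correlations were highest between the strains within a phase, at 0.68 in log phase and 0.59 at day 4. The main fit did not use this pairing. Genes called over all genes moved more than the members: at day 4 in the euploid from 521 to 1730 with a library left out, 782 with at least 10 reads, and 801 with only the groups compared, against 1420; in Chr12 from 75 to 1744 with a library left out, 1821 with 1 read per position, 1848 with the second tables and 718 with at least 10 reads, against 1190. Between the strains at day 4, 0 became 90 with DESeq2, 78 with 1 read per position and 36 with the second tables. RLE lowered the median of all genes at day 4 by 0.14 in the euploid and 0.19 in Chr12, and turned no call.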
